A study of Mus musculus with 15 samples.

Results

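Transcripts of 10 genes for matrix metalloproteinases and their inhibitors were followed in mouse lung whose donors had been exposed to a fibre-shaped particle, the rod-like carbon nanotube (rCNT). The genes were Mmp2, Mmp3, Mmp8, Mmp9, Mmp12, Mmp13, Mmp14 and Mmp19 (8 metalloproteinases) and Timp1 and Timp3 (2 inhibitors), out of 20972 genes with a symbol on the array. They were found through the RefSeq accession of each array probe, which gave 11 of 55681 probes, with a pair of probes for Mmp12 and 1 probe for each other gene. All 11 probes passed the filter on dim signals and were tested. Lungs of female C57BL/6 mice, 7 to 8 weeks old and without any stated genetic change, were taken 24 h after the last exposure and their total RNA was hybridised to 2-colour Agilent arrays. In the aspirated rCNT group (4 samples), rCNT was delivered by oropharyngeal aspiration, in which the animal breathes in a drop of liquid placed deep in its mouth, for 4 days with a daily 10 µg in 50 µl of phosphate-buffered saline (PBS). The PBS group (4 samples) received the vehicle alone. The inhaled rCNT group (3 samples) breathed an aerosol of 6.2 to 8.2 mg per cubic metre for 4 h per day on 4 days, and the untreated group (4 samples) served as its control. Both rCNT groups were exposed to the same kind of particle, but the dose that reached the lung by each route is not given in the labels.

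Matrix metalloproteinases are zinc-dependent enzymes that are made as inactive precursors and cleave collagens, elastin and other proteins outside the cell. Tissue inhibitors of metalloproteinases (TIMPs) bind the active site of the mature enzymes and block them. In the lung these enzymes take part in the passage of leukocytes, in the turnover of matrix after injury and in the loss of elastic fibres, and macrophages, neutrophils and fibroblasts are among the cells that make them.

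The genes also differ in the sequence around their start sites. It is shown for the 5 genes on which the results below turn most and for which RefSeq gives a window. Each window runs from 250 bases before to 50 bases after an annotated start (RefSeq, GRCm38.p6, plus strand). Capitals mark matches, on either strand, to an AP-1 motif, which transcription factors of the Fos and Jun families bind and for which the letters TGANTCA were searched. They also mark a TATA box and a GC box, whose letters are given after the sequences. For Mmp12 the second of its annotated starts is printed (chr9:7347124-7347423), followed by Mmp13 (chr9:7272264-7272563), Mmp14 (chr14:54431348-54431647), Timp1 (chrX:20869916-20870215) and Timp3 (chr10:86300162-86300461).
Mmp12: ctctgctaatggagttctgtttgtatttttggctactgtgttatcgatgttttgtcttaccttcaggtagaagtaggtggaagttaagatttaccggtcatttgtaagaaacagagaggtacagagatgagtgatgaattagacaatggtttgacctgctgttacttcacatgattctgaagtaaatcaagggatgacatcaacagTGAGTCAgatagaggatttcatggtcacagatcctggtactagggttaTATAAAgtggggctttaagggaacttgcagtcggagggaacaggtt
Mmp13: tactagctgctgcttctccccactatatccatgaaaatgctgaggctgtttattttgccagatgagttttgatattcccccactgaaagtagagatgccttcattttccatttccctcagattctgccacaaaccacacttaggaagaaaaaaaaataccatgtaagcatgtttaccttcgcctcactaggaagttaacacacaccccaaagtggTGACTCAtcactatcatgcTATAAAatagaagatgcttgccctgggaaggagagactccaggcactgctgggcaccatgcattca
Mmp14: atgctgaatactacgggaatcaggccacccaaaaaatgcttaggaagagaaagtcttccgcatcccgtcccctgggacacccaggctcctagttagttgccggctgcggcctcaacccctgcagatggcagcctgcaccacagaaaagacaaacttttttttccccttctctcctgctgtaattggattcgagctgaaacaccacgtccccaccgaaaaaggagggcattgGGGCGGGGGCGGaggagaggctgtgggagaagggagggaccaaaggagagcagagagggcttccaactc
Timp1: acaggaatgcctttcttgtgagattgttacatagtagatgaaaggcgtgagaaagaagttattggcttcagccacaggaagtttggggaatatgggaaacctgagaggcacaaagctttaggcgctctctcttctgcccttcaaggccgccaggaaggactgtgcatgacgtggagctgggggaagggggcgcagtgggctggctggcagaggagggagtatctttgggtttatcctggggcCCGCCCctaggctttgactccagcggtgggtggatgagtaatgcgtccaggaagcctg
Timp3: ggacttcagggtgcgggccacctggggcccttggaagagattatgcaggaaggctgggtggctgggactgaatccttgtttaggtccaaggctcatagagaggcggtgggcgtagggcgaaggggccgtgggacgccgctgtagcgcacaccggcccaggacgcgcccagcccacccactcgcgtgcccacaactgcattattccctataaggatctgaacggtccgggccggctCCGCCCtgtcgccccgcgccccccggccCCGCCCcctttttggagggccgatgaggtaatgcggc

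Of the 10 genes, 7 had a window and 8 windows were read, since Mmp12 has another annotated start; Mmp2, Mmp9 and Mmp19 had none in the table. The AP-1 letters were found in 3 of the 8 windows and in 7.81% of 32851 windows of the same length. They began at position -44 for Mmp12 and at position -35 for Mmp13, counted from the annotated start, and at -46 for Mmp3. The TATA box letters TATAAA were found in 4 of the 8 windows (Mmp12, Mmp13, Mmp3 and, on the minus strand, Mmp8), against 13.6% of all windows. These letters began at position -16 for Mmp13, -7 for Mmp3 and -3 for Mmp8. For Mmp12 they began at position 5, past the annotated start. The GC box letters GGGCGG were found in the windows of Mmp14, Timp1 and Timp3, against 35.7% of all windows. One of the matches of Timp3 began at position 14, past the annotated start. The window at the other start of Mmp12 held none of these 3 motifs. The Ets letters AGGAAG were in 7 of the 8 windows (35.4% of all), and neither TTCNNNGAA (STAT, 8.3% of all) nor a search motif for NF-kB (1.63% of all) was in any of the 8. No match overlapped another in these 8 windows. Both strands were searched, and a match describes letters only.

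Mmp13, Mmp12, Mmp3 and Mmp8 are neighbours in a run of 10 Mmp genes on chromosome 9 in RefSeq, in the order Mmp13, Mmp12, Mmp1b, Mmp3, Mmp1a, Mmp10, Mmp8, Mmp27, Mmp20 and Mmp7. The other genes of this run were not among those tested. The 4 genes did not share 1 pattern, as the values below show.

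Levels are log2 normalised intensities of the sample's own channel, so a difference of 1 is a doubling, and levels of different probes are not compared with each other. A gene was called higher or lower where limma gave a Benjamini-Hochberg adjusted p below 0.05 over 25251 genes and unnamed transcripts. Between 54.6% and 64.7% of spots per sample were well above background, and the correlation between replicates across genes was 0.994 to 0.998. Within a group, the standard deviation (SD) of the median gene lay between 0.0968 and 0.115. The labels do not say whether samples are separate mice, so the p-values rest on a spread that may be technical. The scan names of the inhaled rCNT and untreated samples hold the word Pool and those of the aspirated rCNT and PBS samples do not, so errors after inhalation may be those between pools of animals. Untreated replicate 1 is titled as a PBS aspiration, against the rest of its labels. Without it, 4 of the 10 genes were called higher and 3 lower after inhalation, the same counts as with it.

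After aspiration, 9 of the 10 genes were called, against 47.2% of all genes and transcripts tested. Of these, 8 were higher than in PBS (20.6% of all tested) and 1 was lower (26.5% of all). At least 2-fold, 6 were higher (2.87% of all tested) and 1 was lower (0.931% of all). The lower one, Timp3, fell short of 2-fold under some other settings (log2 fold change up to -0.88). The aspirated rCNT and PBS samples did not overlap for 9 of the 10 genes (42.5% of all). Mmp13 passed the filter on dim signals only through the aspirated rCNT group, and Mmp12 only through the rCNT groups. Both genes are in these counts of higher and of not overlapping genes. The median log2 fold change of the 10 genes was 1.17, beside -0.04 over all tested. After inhalation, 7 genes were called, against 60.8% of all tested, 4 of them higher than in untreated lungs (28.4% of all) and 3 lower (32.5% of all). Only Timp1 was called higher by at least 2-fold (4.16% of all) and only Mmp9 lower by at least 2-fold (1.78% of all). The inhaled rCNT and untreated samples did not overlap for 7 genes (54.8% of all). The median of the 10 genes was -0.04, beside -0.02 over all tested, so the share of calls and the median after inhalation lay near those of all genes. With median centring in place of quantile normalisation, the share of higher among all calls after inhalation was 27.5%, against 46.6%.

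**Figure D1:**
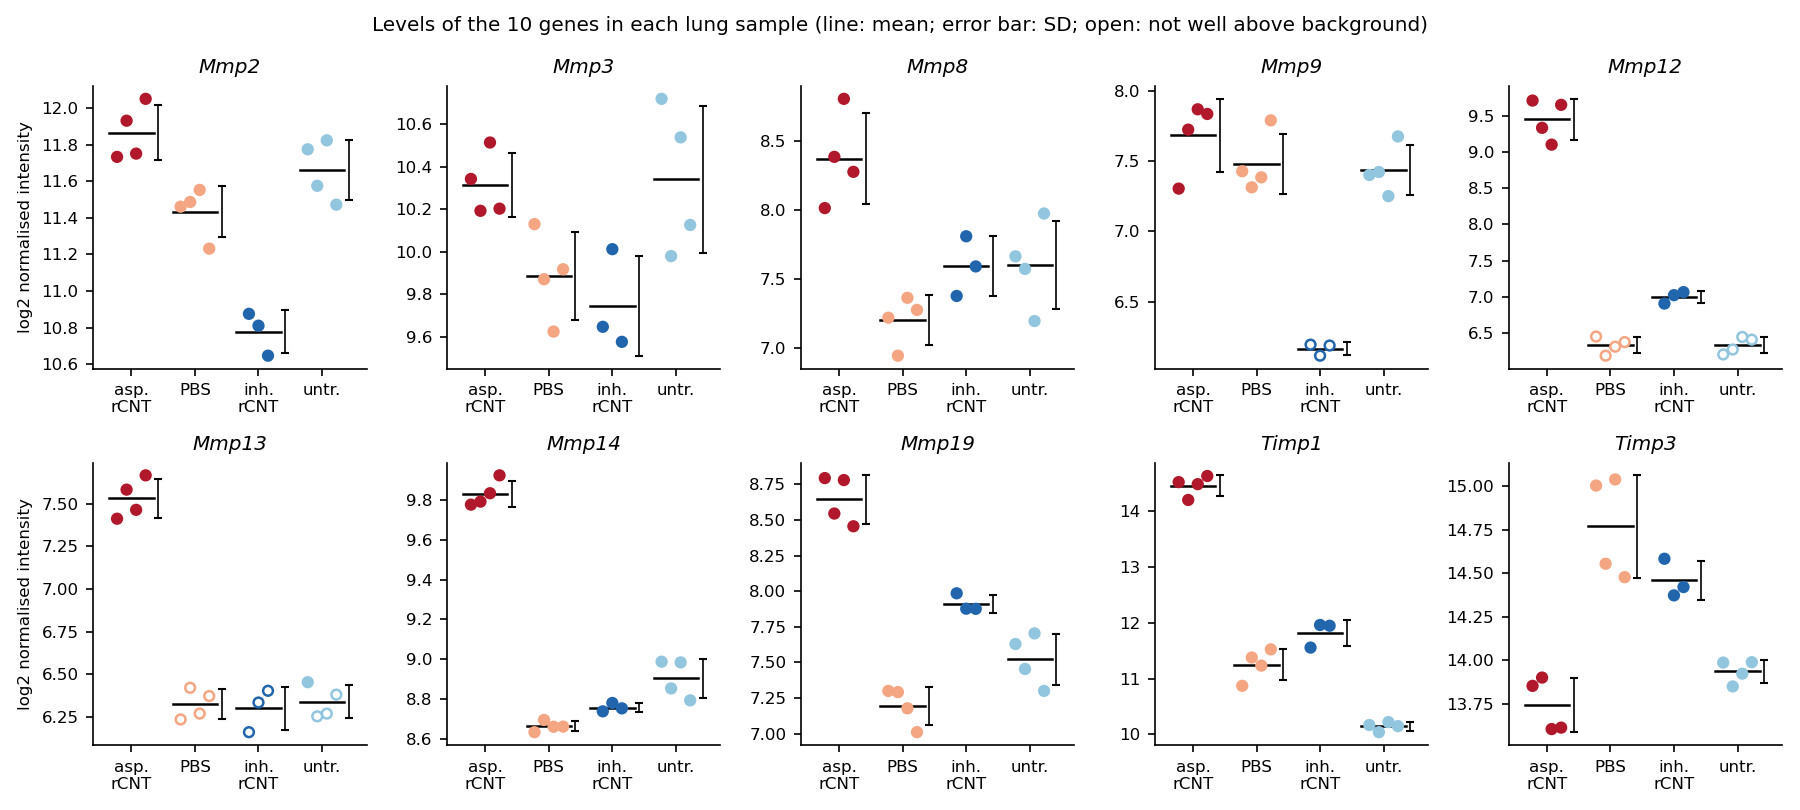
Log2 normalised intensity of each of the 10 genes (vertical axis, own scale per panel) in every aspirated rCNT, PBS, inhaled rCNT and untreated sample, with the group mean as a line, the SD as an error bar and open circles where the probe was not well above background. Aspirated rCNT samples lie above the PBS samples for every metalloproteinase but Mmp9, where they overlap, and below them for Timp3.

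The macrophage elastase gene Mmp12, whose enzyme degrades elastin, had the largest fitted fold change after aspiration among the 8 metalloproteinases on its brighter probe. This rank does not hold on its other probe, whose log2 fold change was 0.77. The brighter probe, A_55_P2024803, had log2 levels of 9.71, 9.33, 9.10 and 9.65 in the 4 aspirated rCNT samples, against 6.45, 6.19, 6.31 and 6.38 in PBS. The groups were far apart, and the probe was well above background in 4 of 4 aspirated rCNT samples and 0 of 4 PBS samples. With this probe and processing, the difference is therefore a lower bound of at least 8.55-fold (log2 fold change 3.11 ± 0.11 SE, adjusted p = 7.77e-12). For such a bound, a dim sample takes either its own value or the weakest signal that any probe above background had in it, whichever is larger. In inhaled rCNT samples the levels were 6.91, 7.02 and 7.07, against 6.21, 6.28, 6.45 and 6.41 in untreated lungs. All 3 inhaled rCNT samples were well above background and above all 4 untreated samples, none of which was. With the same probe and processing, Mmp12 was at least 1.55-fold higher after inhalation (0.66 ± 0.12 SE, adjusted p = 0.000224). Both values depend on how dim signals are treated: on the scanner's processed intensity the log2 fold change was 5.84 after aspiration and 2.54 after inhalation. The smallest log2 fold changes under other settings were 1.94 after aspiration and 0.43 after inhalation. In whole-lung RNA such as this, a change in the number of cells of a type and a change in RNA per cell cannot be told apart.

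The other probe of Mmp12, A_55_P2105783, carries the same RefSeq accession and gave smaller differences. Its log2 levels were 6.67, 6.81, 6.73 and 6.84 in aspirated rCNT samples, against 5.94, 5.92, 6.18 and 5.94 in PBS. Again the groups did not overlap, and the probe was at least 1.48-fold higher after aspiration (0.77 ± 0.07 SE, adjusted p over 34271 probes = 2.84e-07). This probe passed the filter only through the aspirated rCNT group. It lay at 6.22, 6.21 and 6.23 in inhaled rCNT samples, against 6.05, 6.15, 5.93 and 5.90 in untreated lungs. No sample of either of these groups was well above background, so no fold is given. Neither probe was well above background in any PBS or untreated sample, so the size of the disagreement between the probes could not be measured. With the mean of both probes, the log2 fold change of Mmp12 after aspiration was 1.94.

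**Figure D2:**
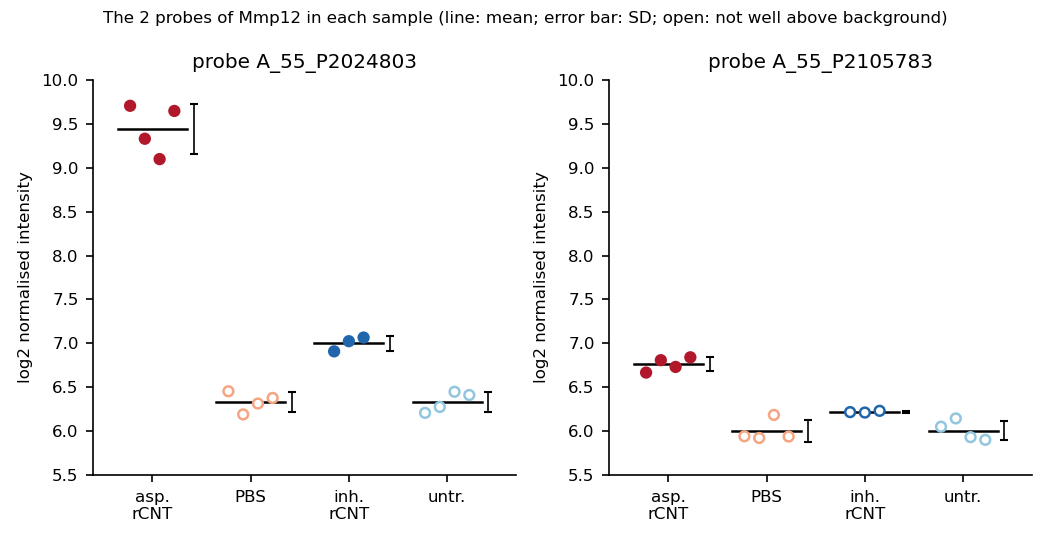
Log2 normalised intensity of both Mmp12 probes (vertical axis, same scale in both panels) in the aspirated rCNT, PBS, inhaled rCNT and untreated samples, with mean and SD and with open circles where the probe was not well above background. Aspirated rCNT samples stand at 9.10 to 9.71 on A_55_P2024803 and at 6.67 to 6.84 on A_55_P2105783, above all PBS samples on each probe.

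The collagenase genes Mmp8 and Mmp13 both rose after aspiration, and neither was called after inhalation. Mmp8, whose enzyme is stored in neutrophils and cuts fibrillar collagen, had log2 levels of 8.01, 8.38, 8.80 and 8.28 in aspirated rCNT samples, against 7.22, 6.95, 7.37 and 7.28 in PBS. The lowest aspirated rCNT sample lay above the highest PBS sample, and the difference was 2.25-fold (1.17 ± 0.17 SE, adjusted p = 2.79e-05). Under other settings its log2 fold change ran from 1.15 to 1.76. Mmp8 was at 7.38, 7.81 and 7.59 in inhaled rCNT samples, against 7.67, 7.57, 7.20 and 7.98 in untreated lungs. The inhaled rCNT range lay inside the untreated range, with a log2 fold change of -0.02 ± 0.18 SE (adjusted p = 0.92). Mmp13, the main interstitial collagenase of the mouse, was at 7.41, 7.58, 7.46 and 7.67 in aspirated rCNT samples, against 6.24, 6.42, 6.27 and 6.37 in PBS. It was well above background in 4 of 4 aspirated rCNT samples and in 0 of 4 PBS samples, and was at least 2.31-fold higher (1.21 ± 0.08 SE, adjusted p = 3.57e-09). Mmp13 was tested only because its probe passed the filter in the aspirated rCNT group. On the processed intensity its log2 fold change was 3.43. Inhaled rCNT samples had Mmp13 levels of 6.16, 6.33 and 6.40, against 6.45, 6.25, 6.27 and 6.38 in untreated lungs. With 0 of 3 inhaled rCNT and 1 of 4 untreated samples well above background, it could not be measured there (adjusted p = 0.64).

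The gelatinase genes Mmp2 and Mmp9, whose enzymes cleave denatured and basement membrane collagen, both fell after inhalation. Mmp2, made mainly by fibroblasts, had log2 levels of 11.73, 11.93, 11.75 and 12.05 in aspirated rCNT samples, against 11.46, 11.49, 11.55 and 11.23 in PBS. All aspirated rCNT samples were above all PBS samples, and the rise was 1.35-fold (0.43 ± 0.09 SE, adjusted p = 0.00138). In inhaled rCNT samples Mmp2 was at 10.88, 10.81 and 10.65, against 11.77, 11.57, 11.82 and 11.47 in untreated lungs. Every inhaled rCNT sample was below every other sample of the series, and Mmp2 was 1.86-fold lower than in untreated lungs (log2 fold change -0.90 ± 0.10 SE, adjusted p = 2.02e-06).

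Mmp9, which neutrophils and macrophages release, was printed in 10 spots on each array. Its mean log2 levels were 7.30, 7.72, 7.87 and 7.84 in aspirated rCNT samples, against 7.43, 7.31, 7.38 and 7.79 in PBS. These ranges overlapped, and Mmp9 was the only gene of the 10 that was not called after aspiration (0.20 ± 0.12 SE, adjusted p = 0.192). The call rested on single samples: without aspirated rCNT replicate 1 the log2 fold change was 0.33 (adjusted p = 0.0278), and without PBS replicate 4 it was also 0.33 (adjusted p = 0.0232). Mmp9 lay at 6.20, 6.12 and 6.19 in inhaled rCNT samples, against 7.40, 7.42, 7.25 and 7.68 in untreated lungs. None of the spots of the 3 inhaled rCNT samples was well above background, while 10 of 10 spots were in each untreated sample. With this processing, Mmp9 was at least 2.32-fold lower after inhalation (log2 fold change -1.28 ± 0.13 SE, adjusted p = 7.3e-07). Under other settings the log2 fold change ran from -3.84, on the processed intensity, to -1.10. In aspirated rCNT replicate 1 and inhaled rCNT replicate 2, 9 of the 10 spots were used, the other having an outlier mark.

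**Figure D3:**
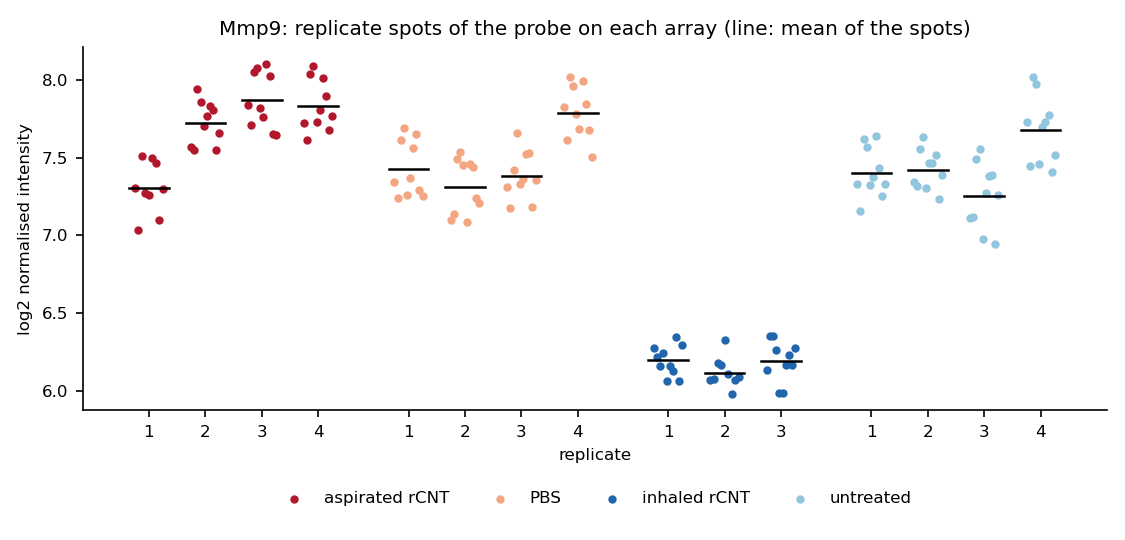
Log2 normalised intensity of every usable Mmp9 spot (points) in each replicate of the aspirated rCNT, PBS, inhaled rCNT and untreated groups, with the mean of the spots as a line. The means of the inhaled rCNT samples are 6.12 to 6.20, below all spots of the other samples.

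Markers of the cells that make these enzymes were measured on the same arrays. Of 10 monocyte and recruited macrophage markers tested (of 12 listed), 10 were called higher after aspiration, and their log2 summed level was 15.7 to 15.9 in aspirated rCNT samples and 14.8 to 14.9 in PBS. Among them Adgre1, a surface protein of macrophages, was 1.29 higher on the log2 scale. After inhalation 4 of these markers were higher and 3 lower, with a log2 summed level of 14.5 to 14.7 in inhaled rCNT and 14.7 to 14.8 in untreated samples, and Adgre1 was 0.40 lower. All markers of this list were above background in some sample of each group. Of 10 alveolar macrophage markers tested (of 11 listed), 2 were higher and 5 lower after aspiration, and 3 higher and 4 lower after inhalation. Their log2 summed level was 18.2 to 18.5 in aspirated rCNT and 16.6 to 16.9 in PBS samples, and 17.3 to 17.4 in inhaled rCNT and 16.4 to 16.6 in untreated samples. The mean of their log2 levels was 11.9 to 12.1 in aspirated rCNT and also in PBS samples, and 11.4 to 11.6 in inhaled rCNT and 11.6 to 11.8 in untreated samples. Some of these markers, named after their values were seen, went opposite ways after inhalation, with Chil3, a chitinase-like protein, 1.19 higher and the surface lectin gene Siglecf at -1.71. After aspiration Chil3 was 2.002 higher, and Siglecf was not called (0.14). The part of macrophages in the differences of Mmp12, Mmp14 and Mmp19 was not tested.

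Of 10 neutrophil markers tested (of 12 listed), 4 were called higher and 1 lower after aspiration, and 2 higher and 4 lower after inhalation. Their log2 summed level was 16.6 to 16.9 in aspirated rCNT and 16.6 to 16.9 in PBS samples. It was 16.6 to 16.7 in inhaled rCNT and 16.4 to 16.5 in untreated samples. The mean of their log2 levels differed from the sum, at 10.6 to 11.1 in aspirated rCNT and 10.2 to 10.4 in PBS samples, and at 9.85 to 10.1 in inhaled rCNT and 10.1 to 10.4 in untreated samples. Csf3r, the receptor for granulocyte colony-stimulating factor, was the only one called lower after aspiration (-0.39), while Ltf, Retnlg, Cxcr2 and Camp were 2.22, 1.93, 1.07 and 0.39 higher on the log2 scale. After inhalation Ltf, which encodes lactoferrin, was 3.22 higher and Csf3r 0.53 higher, and S100a8, S100a9, Cxcr2 and Mpo had log2 fold changes of -2.63, -2.64, -0.76 and -0.20. Neutrophil markers thus did not move one way after inhalation. The part of these cells in the Mmp8 and Mmp9 values was not tested.

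Of 10 fibroblast markers, 4 were called higher and 5 lower after aspiration, and 10 lower after inhalation. Their log2 summed level was 17.4 to 17.6 in aspirated rCNT and 16.6 to 16.8 in PBS samples, and it was 16.4 to 16.5 in inhaled rCNT and 16.7 to 16.9 in untreated samples. The mean of their log2 levels differed less after aspiration, at 12.46 to 12.49 in aspirated rCNT and 12.33 to 12.39 in PBS samples. It was 12.01 to 12.10 in inhaled rCNT and 12.45 to 12.61 in untreated samples. After aspiration the collagen genes Col3a1, Col1a1 and Col1a2 and the surface protein gene Thy1 were 1.39, 1.36, 0.93 and 0.49 higher, while the other called markers were lower, among them the receptor gene Pdgfra at -0.80. After inhalation Pdgfra was at -0.31. The part of fibroblasts in the Mmp2 and Mmp3 values was not tested. Of 10 endothelial markers, 9 were lower after aspiration and 10 after inhalation, with Pecam1, an adhesion molecule of these cells, at -0.54 and -1.18. Their log2 summed level was 16.2 to 16.4 in aspirated rCNT and 16.8 to 17.0 in PBS samples, and 16.4 to 16.7 in inhaled rCNT and 17.2 to 17.4 in untreated samples. Of 5 eosinophil markers tested (of 6 listed), 4 were higher and none lower after aspiration, and 1 was higher and 2 lower after inhalation. The lower ones were Siglecf (-1.71), which is also in the alveolar macrophage list, and Ccr3 (-0.69). Ccr3 was well above background in only 1 of 3 inhaled rCNT samples, and Prg2 in no inhaled rCNT or untreated sample. The log2 summed level of the 5 eosinophil markers was 11.7 to 12.2 in aspirated rCNT and 10.96 to 11.2 in PBS samples, and 10.0 to 10.1 in inhaled rCNT and 10.8 to 10.99 in untreated samples. The part of these cells in the values was not tested. Of 7 type 2 cell markers, 1 was higher (the surfactant protein gene Sftpd, 0.99) and 2 lower (Sftpb and Abca3, -0.50 and -0.51) after aspiration, and 1 was higher and 2 lower after inhalation. Sftpc, which marks this cell type of the lung, was bright in all groups, with mean log2 levels of 18.0 in aspirated rCNT, 18.3 in PBS, 17.8 in inhaled rCNT and 18.3 in untreated samples.

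The stromelysin gene Mmp3, whose enzyme cleaves proteoglycans and activates other metalloproteinases, moved in opposite directions after the exposures. Its log2 levels were 10.34, 10.19, 10.51 and 10.20 in aspirated rCNT samples, against 10.13, 9.87, 9.63 and 9.92 in PBS. The gap between both groups was narrow, and Mmp3 was 1.34-fold higher (0.43 ± 0.15 SE, adjusted p = 0.0277). This call was lost without aspirated rCNT replicate 3 (adjusted p = 0.0819) or without PBS replicate 2 (0.0637), 3 (0.0946) or 4 (0.0561). It was also lost on the processed intensity (adjusted p = 0.0657) and with median centring (adjusted p = 0.0788). Mmp3 was at 9.65, 10.01 and 9.58 in inhaled rCNT samples, against 10.72, 9.98, 10.54 and 10.13 in untreated lungs. The highest inhaled rCNT sample lay above the lowest untreated sample, and Mmp3 was 1.49-fold lower (log2 fold change -0.58 ± 0.16 SE, adjusted p = 0.00576). Within slide 2, with 1 inhaled rCNT sample, the log2 fold change was -0.73 (adjusted p = 0.0352). Within slide 3 it was -0.36 (adjusted p = 0.321), but that slide holds only 1 untreated sample, assumed to vary like the other groups, so the missed threshold there says little.

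Mmp14 encodes a membrane-anchored metalloproteinase that cleaves collagen at the cell surface and activates the Mmp2 precursor. It had log2 levels of 9.78, 9.79, 9.83 and 9.92 in aspirated rCNT samples, against 8.63, 8.70, 8.66 and 8.66 in PBS. Replicates lay close together and the groups far apart, with a 2.25-fold rise (1.17 ± 0.06 SE, adjusted p = 3.05e-10). In inhaled rCNT samples it lay at 8.74, 8.78 and 8.75, against 8.99, 8.85, 8.98 and 8.79 in untreated lungs. All inhaled rCNT samples were below all untreated ones, but the log2 fold change of -0.15 ± 0.06 SE did not pass the threshold (adjusted p = 0.0609). It did pass without untreated replicate 4 (-0.19, adjusted p = 0.0204), with no background correction (-0.16, adjusted p = 0.0489), with array weights (-0.16, adjusted p = 0.0448) and with median centring (-0.29, adjusted p = 0.0365). Median centring moved the median of all genes after inhalation by -0.13, and relative to that median Mmp14 was at -0.14, against -0.13 in the values above.

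Mmp19, which encodes a secreted metalloproteinase with basement membrane substrates, was called higher after both exposures. Its log2 levels were 8.79, 8.54, 8.78 and 8.46 in aspirated rCNT samples, against 7.30, 7.29, 7.18 and 7.01 in PBS. The groups were well separated, with a 2.73-fold rise (1.45 ± 0.10 SE, adjusted p = 7.14e-09). In inhaled rCNT samples Mmp19 was at 7.99, 7.88 and 7.88, against 7.63, 7.45, 7.70 and 7.30 in untreated lungs. All 3 exposed samples were above all 4 controls, and the rise was 1.32-fold (0.40 ± 0.11 SE, adjusted p = 0.00348). On the processed intensity the log2 fold changes were larger, at 2.21 after aspiration and 0.81 after inhalation.

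The inhibitor genes differed from each other. Timp1, the inducible inhibitor that blocks most secreted metalloproteinases, had log2 levels of 14.52, 14.20, 14.49 and 14.63 in aspirated rCNT samples, against 10.87, 11.38, 11.23 and 11.52 in PBS. The groups were widely separated, with a 9.26-fold rise (3.21 ± 0.12 SE, adjusted p = 8.22e-12). After inhalation, Timp1 was at 11.55, 11.96 and 11.95 in the exposed samples, against 10.17, 10.04, 10.22 and 10.15 in untreated lungs. Again no sample overlapped, and the rise was 3.26-fold (1.71 ± 0.13 SE, adjusted p = 1.97e-08). After both exposures the fold change of Timp1 was larger than that of any metalloproteinase among the 10 genes that was well above background in both groups.

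Timp3, the inhibitor that binds to the extracellular matrix, was at 13.85, 13.90, 13.60 and 13.61 in aspirated rCNT samples, against 15.003, 14.55, 15.04 and 14.48 in PBS. Every aspirated rCNT sample was below every PBS sample, and Timp3 was 2.04-fold lower (log2 fold change -1.03 ± 0.10 SE, adjusted p = 3.64e-07). Under other settings the log2 fold change of Timp3 after aspiration ran from -1.06 to -0.88. It was the only gene of the 10 called lower after aspiration. In inhaled rCNT samples it lay at 14.58, 14.37 and 14.42, against 13.99, 13.85, 13.92 and 13.99 in untreated lungs. Here every exposed sample was above every control, with a 1.40-fold rise (0.49 ± 0.11 SE, adjusted p = 0.000819), but with median centring the log2 fold change was -0.01 (adjusted p = 0.953). Relative to the median of all genes, Timp3 was 0.14 higher with median centring, against 0.51 in the values above. Heart muscle markers also differed between the groups. Of 8 cardiac muscle markers, 8 were lower after aspiration and 7 were higher in PBS than in untreated lungs, and after inhalation 4 were lower. Their log2 summed level was 14.8 to 15.2 in aspirated rCNT, 16.1 to 16.3 in PBS, 14.2 to 14.9 in inhaled rCNT and 14.4 to 15.4 in untreated samples. Their part in the Timp3 values was not tested.

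**Figure D4:**
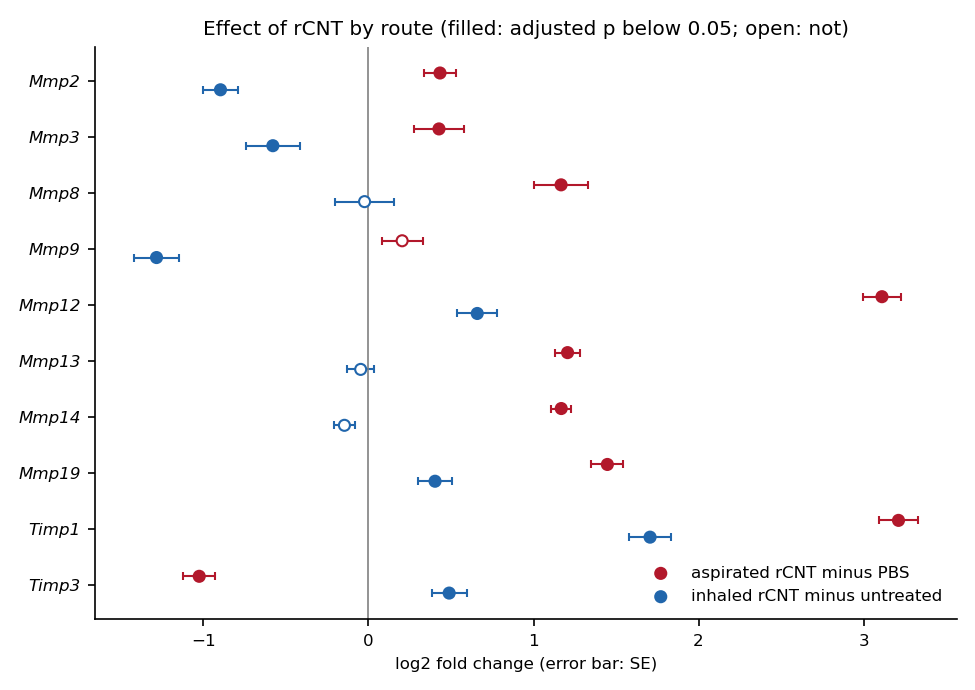
Log2 fold change (horizontal axis, error bar SE) of the 10 genes for aspirated rCNT minus PBS and for inhaled rCNT minus untreated, filled where the adjusted p was below 0.05. Aspiration values lie to the right of inhalation values for the 8 metalloproteinases and Timp1, and to the left for Timp3.

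The response to aspiration and the response to inhalation were compared in the same fit, as the aspiration effect minus the inhalation effect. This difference was called for all 10 genes, against 57% of all genes and transcripts tested. It was positive for 9 genes (28.4% of all called in that direction) and negative for 1 (28.5% of all). Of the 7 genes well above background in all samples, 6 had a positive difference, each at least 2-fold (4.76% of all), and the negative one was too (5.96% of all). The positive differences were 1.33 for Mmp2, 1.01 for Mmp3, 1.19 for Mmp8, 1.31 for Mmp14, 1.04 for Mmp19 and 1.51 for Timp1 on the log2 scale. Timp3 had a difference of -1.51 ± 0.14 SE (adjusted p = 3.48e-07). Not all of these sizes stayed at 2-fold under other settings. The smallest there were 0.98 for Mmp3, 0.96 for Mmp19 and -0.87 for Timp3, and Mmp8 ran from 1.16 to 1.76. Mmp9, Mmp12 and Mmp13 were dim in some groups, so their fitted differences of 1.49, 2.45 and 1.25 are not measured sizes. Under other settings these ran from 1.33 to 4.16 for Mmp9, from 1.51 to 3.30 for Mmp12 and from 1.24 to 3.17 for Mmp13. Standard errors of the 6 positive differences ran from 0.09 for Mmp14 to 0.25 for Mmp8. With median centring, which moved the median difference of all genes by 0.15, the share of positive among all called differences was 69.4%, against 49.9%, and 9 of the 10 genes stayed positive and called. The 8 samples of the aspiration experiment filled 1 slide, those of the inhalation experiment lay on 2 more, and each route had its own kind of control, so route, slide and control cannot be told apart in this difference.

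The controls themselves differed. PBS lungs had 2 of the 10 genes higher than untreated lungs (26.3% of all tested) and 5 lower (33.1% of all), and the samples did not overlap for 4 genes (49.3% of all). Timp1 was 1.11 ± 0.12 SE higher on the log2 scale in PBS than in untreated lungs (adjusted p = 9.92e-07), and Timp3 was 0.83 ± 0.10 SE higher (adjusted p = 2.74e-06). The lower genes had log2 fold changes of -0.23 (Mmp2), -0.45 (Mmp3), -0.40 (Mmp8), -0.24 (Mmp14) and -0.33 (Mmp19). With median centring none of these 5 was called (adjusted p from 0.0783 to 0.969), and Mmp14 was at -0.0056. Mmp2 and Mmp8 also lost their call in 10 of 15 fits with 1 sample left out. With median centring, the share of higher among all calls between these controls was 59.2%, against 44.3%. Only Mmp14 and Mmp19 of the lower genes stayed called without untreated replicate 1, the sample with the conflicting title. Set against PBS instead of untreated lungs, inhaled rCNT samples had 3 genes higher (27.5% of all tested), Mmp12, Mmp19 and Timp1, and 3 lower (27.7% of all), Mmp2, Mmp9 and Timp3. Timp3 thereby changed direction, with a log2 fold change of -0.34 ± 0.11 SE (adjusted p = 0.0119).

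The order of the group means differed between the genes. Timp1 was lowest in untreated, then PBS, then inhaled rCNT, then aspirated rCNT samples, and no neighbours in that order overlapped. Mmp19 and Mmp14 also had 4 groups without overlap between neighbours, with PBS lowest and aspirated rCNT highest, but for Mmp14 untreated lungs stood above inhaled rCNT lungs. For Mmp12, PBS and untreated samples overlapped below inhaled rCNT, which in turn lay below aspirated rCNT. For Mmp2, the inhaled rCNT samples lay alone at the low end, followed by PBS, untreated and aspirated rCNT samples, of which neighbours overlapped. Mmp9 had the same group apart at the low end, below untreated, PBS and aspirated rCNT samples, which overlapped. For Mmp13 the aspirated rCNT samples lay alone above the overlapping other groups. For Mmp8, the aspirated rCNT samples lay alone at the high end, and PBS lay below inhaled rCNT samples, but untreated samples overlapped both. For Mmp3, inhaled rCNT and PBS samples overlapped below aspirated rCNT samples, and untreated samples, with the highest mean, overlapped all of them. For Timp3, aspirated rCNT and untreated samples overlapped at the low end, and inhaled rCNT and PBS samples overlapped at the high end.

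Genes around these enzymes were read from 9 lists with 103 genes, of which 87 were tested. After aspiration 44 of them were called higher and 18 lower (20.6% and 26.5% of all tested), with a median log2 fold change of 0.24. After inhalation 20 were higher and 31 lower (28.4% and 32.5% of all tested), with a median of -0.02, so these shares lay near those of all genes, and only 9 were higher with median centring. The medians of all genes tested were -0.04 and -0.02.

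Of 15 other metalloproteinase genes, 5 were tested, and 3 were higher and 2 lower after aspiration. Mmp25, a membrane-bound enzyme of leukocytes, was at least 2.37-fold higher and not well above background in PBS, Mmp23 was 0.58 higher and the membrane-type enzyme gene Mmp15 was 0.64 lower on the log2 scale. After inhalation 3 of the 5 were lower, with Mmp15 at -0.69. Of 5 other inhibitor genes tested (of 6), 1 was higher and 3 lower after aspiration and 3 lower after inhalation. Reck, a membrane-anchored inhibitor of metalloproteinases, had log2 fold changes of -1.06 after aspiration and -0.59 after inhalation, while Tfpi2, a Kunitz-type protease inhibitor, was at least 1.64-fold higher after aspiration.

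In the plasminogen system, whose protease plasmin can activate metalloproteinase precursors, 6 of 10 genes were higher after aspiration and none lower. Among them were Serpinb2, an inhibitor of plasminogen activators (1.82 on the log2 scale), and Plau, which encodes urokinase (0.79). Serpinb2 was well above background in only 1 of 4 PBS samples. After inhalation 1 of the 10 was higher (Serpinf2, 0.32) and 3 were lower, with Serpine2, a protease inhibitor, at -0.72. Serpinf2 was well above background in only 1 of 4 untreated samples. Of 18 ADAM and ADAMTS genes, 7 were higher and 4 lower after aspiration, and 7 higher and 3 lower after inhalation. Adam8, a membrane protease of leukocytes, had the smallest p in both comparisons and was 2.18 higher after aspiration and 1.95 higher after inhalation on the log2 scale. Adamts4, an aggrecan-cleaving enzyme, was 1.56 higher after aspiration, and Adamts2, which trims procollagens, had a log2 fold change of -0.73 after inhalation. Adamts10 differed in direction, at -0.65 after aspiration and 0.97 after inhalation. Its mean log2 levels were 9.30 in aspirated rCNT, 9.95 in PBS, 9.58 in inhaled rCNT and 8.61 in untreated samples. PBS thus stood above both rCNT groups, and untreated lungs stood below them.

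Of 6 cathepsin and neutrophil elastase genes tested (of 8), 5 were higher after aspiration and none lower, and after inhalation 1 was higher and 3 lower. Ctsk, the collagen-cleaving cathepsin K, was 2.37 higher after aspiration and 1.74 higher after inhalation on the log2 scale. Ctsb, a lysosomal protease, was 1.18 higher after aspiration, and Ctsl, another lysosomal protease, had a log2 fold change of -0.62 after inhalation. Of 8 serine and cysteine protease inhibitors tested (of 9), 3 were higher and 3 lower in each comparison. Serpina3n, an acute-phase inhibitor of serine proteases, was 2.33 higher after aspiration and 0.73 higher after inhalation. Slpi, an elastase inhibitor of the airways, was 0.73 higher after inhalation, and Serpinb1a, an intracellular inhibitor of neutrophil proteases, had a log2 fold change of -1.08.

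Among 14 matrix genes whose products metalloproteinases can cleave, 7 were higher and 2 lower after aspiration, and 2 were higher and 8 lower after inhalation. Fn1, which encodes fibronectin, was 1.46 higher and Col1a1, a chain of type I collagen, 1.36 higher after aspiration on the log2 scale. Dcn, which encodes the proteoglycan decorin, had log2 fold changes of -0.34 after aspiration and -0.62 after inhalation, and Tnc, which encodes tenascin C, was 0.56 higher after inhalation. Of 15 cytokines and transcription factors known to induce Mmp or Timp genes, 10 were higher and 3 lower after aspiration, and 4 higher and 3 lower after inhalation. The cytokine genes Il6 and Il4 were 2.88 and 2.24 higher after aspiration, and Ets2, a transcription factor, was 0.64 lower. Il6 was well above background in only 1 of 4 PBS samples. After inhalation Fosl2, an AP-1 subunit, was 0.75 higher, Tnf was 0.38 higher and Tgfb1 had a log2 fold change of -0.75. Tnf was well above background in only 1 of 4 untreated samples. Of 6 surface partners, Cd63, a partner of Timp1, and Cd44, which anchors metalloproteinases, were higher in both comparisons, at 0.78 and 0.48 after aspiration and at 0.53 and 0.59 after inhalation. Kdr, the vascular endothelial growth factor receptor that Timp3 can block, had a log2 fold change of -1.05 after aspiration, and Bsg, an inducer of metalloproteinases, of -0.98 after inhalation.

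**Figure D5:**
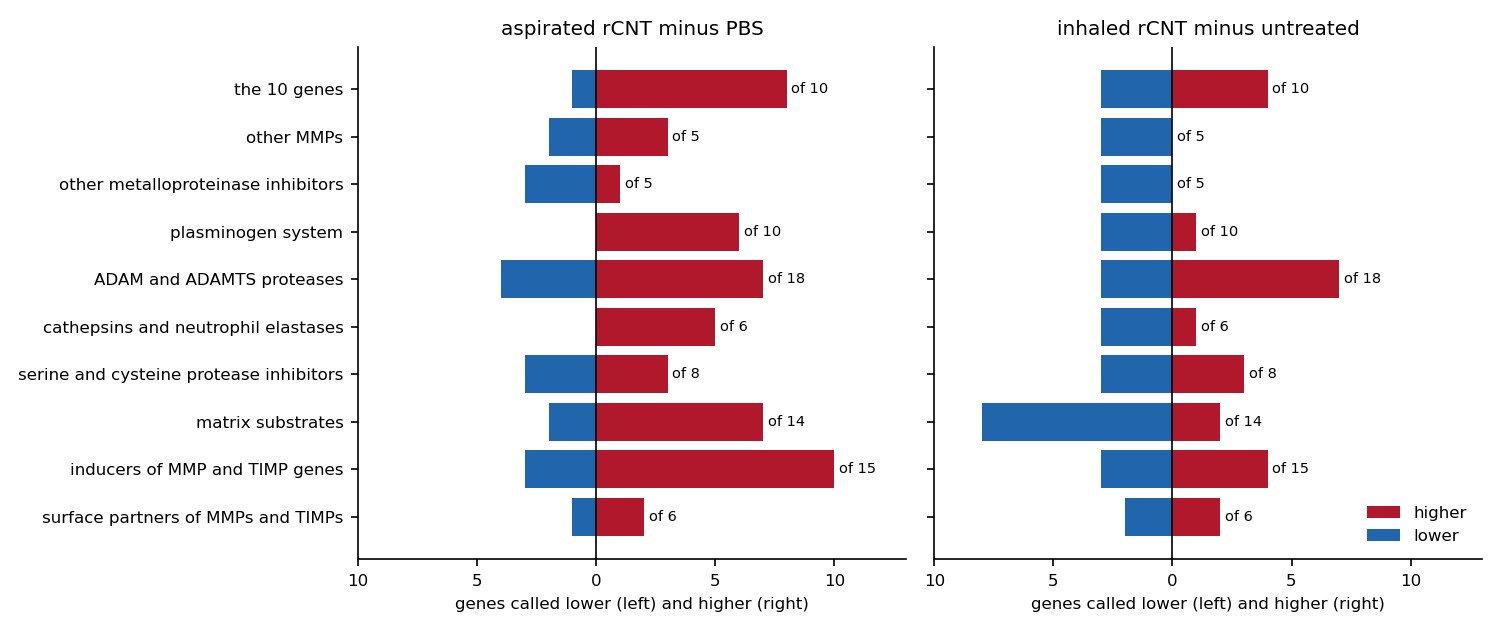
Number of genes called higher (right of 0) and lower (left of 0) in each list, with the number tested beside the bars, for aspirated rCNT minus PBS and for inhaled rCNT minus untreated. Of the 10 genes, 8 were higher and 1 lower after aspiration, and 4 higher and 3 lower after inhalation.

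The genes whose log2 levels followed a member most closely over the 15 samples were found by Pearson correlation across those samples, which share the group structure and the normalisation, so the values are descriptions. Those closest to Mmp12 were Fcgr2b, Gatm, Tff1, Chl1 and Matk, with r from 0.988 to 0.994. For Fcgr2b, an inhibitory receptor for antibodies, the log2 fold change was 2.13 after aspiration and 0.43 after inhalation. Those closest to Mmp14 were Ccr1l1, Tnfaip8l1, Car13, Pdcd1 and Nek6, with r from 0.984 to 0.989. Those closest to Timp1 were Incenp, Ccl2, Batf3, Ccl6 and Snrpe, with r from 0.986 to 0.995. Ccl2, a chemokine that attracts monocytes, was 3.87 higher after aspiration and 2.05 higher after inhalation on the log2 scale. Among those closest to Timp3 were Oplah, Ppl, Gm20611 and Ago4, with r from 0.955 to 0.963.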

How the data were processed

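Total RNA of 15 lung samples was measured on 14 arrays of 3 slides; 1 array holds both inhaled rCNT replicate 2 and untreated replicate 4. Each sample is 1 channel (Cy3 or Cy5), and the other channel was not used here, except that the shared array holds a sample in both. Per the file headers, the deposited intensity values were extracted with Agilent Feature Extraction, whose design refers to mm9. Per the submitters' processing notes, limma was also used. The deposited series table was taken as log2 values of the authors, although its log base and centring are not given in the sources used here, and served only as an alternative.

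Median spot and background intensities were corrected with normexp (offset 50, all spots), turned into log2 values and brought to common quantiles over the 15 channels. Control spots and spots with an outlier mark (106 to 154 per sample) were left out, no spot was saturated, and precision is limited by the number of arrays. Probes well above background in 3 or more samples of any 1 group were kept (34271 of 55681), and each gene was read from its brightest probe on average. Names came from RefSeq accessions (GRCm38.p6, names only). For 25251 genes and transcripts, limma 3.58.1 in R 4.3.3 fitted 4 groups and the dye (lmFit, eBayes, two-sided, Benjamini-Hochberg, threshold 0.05); the fit was tested on simulated data. The dye term was not called for any of the 10 genes. Alternatives changed the background correction, scaling, filter, probe choice, block, dye term, variance, control and samples. Same-numbered samples did not deviate together (r from -0.43 to 0.08), so numbers were not taken as pairs.

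All 10 genes are described. Of each list and exposure, the rule named up to 2 higher genes and 1 lower gene with the smallest p, the 5 genes most like Mmp12, Mmp14, Timp1 and Timp3, and single cell type markers; 1 gene of those most like Timp3 is not reported here. The members and lists were chosen with earlier results of these data known.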

Additional observations from a re-analysis of the deposited data

Results flagged for a closer look

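The aspiration effect minus the inhalation effect differed from 0 by limma's interaction term for each of the 10 genes. The threshold was an adjusted p below 0.05, which 57% of all genes and transcripts tested passed. On the log2 scale this difference was 1.33 for Mmp2, 1.01 for Mmp3, 1.19 for Mmp8, 1.49 for Mmp9 and 2.45 for Mmp12. It was 1.25 for Mmp13, 1.31 for Mmp14, 1.04 for Mmp19, 1.51 for Timp1 and -1.51 for Timp3. For Mmp9, Mmp12 and Mmp13, dim in some groups, these are fitted values and not measured sizes. The difference holds any difference between PBS and untreated lungs, with which route and slide go together.

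On the Mmp12 probe A_55_P2105783, PBS replicate 3 lay at 6.18, apart from the other PBS samples at 5.92 to 5.94 (gap over range 0.926, beyond the critical value of Dixon's test). All 4 samples were dim on this probe, none of them well above background, and among 33 such checks chance marks about 1 in 20.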

How the results depend on the processing

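No other setting and no left-out sample changed the direction or the side of the threshold of the difference between routes for any gene (127 values under other settings and 150 with a sample left out). After aspiration this held for 125 of 127 and 144 of 150 values, after inhalation for 144 of 157 and 146 of 150, and for PBS against untreated for 105 of 127 and 119 of 150. The fits within 1 slide and with PBS as the control were run for inhalation only. No setting could separate slide and kind of control from route, so the unchanged difference between routes does not bear on that. Log2 fold changes with the other sign after inhalation were -0.010 for Timp3 (median centring), 0.26 for Mmp13 (processed intensity) and 0.020 (within slide 3), and 0.035 (cyclic loess) and 0.0045 (replicate block) for Mmp8. With PBS samples as the control they were 0.38 for Mmp8, 0.10 for Mmp14 and -0.34 for Timp3. PBS against untreated gave 0.012 (no background correction), 0.016 (deposited table) and 0.016 (slide as a block) for Mmp13, and 0.027 (slide as a block) and 0.030 (array weights) for Mmp12. PBS and untreated samples share no slide, so the slide block could not adjust this contrast for slide. With single samples left out, the range was -0.21 to 0.11 for Mmp8 and -0.092 to 0.029 for Mmp13 after inhalation; for PBS against untreated it was -0.088 to 0.11 for Mmp9, -0.054 to 0.046 for Mmp12 and -0.058 to 0.026 for Mmp13. Of the 10 genes, 1 was lower in PBS than in untreated lungs with median centring (Mmp13, at -0.21 and adjusted p = 0.0472, which is not among the 5 called otherwise), 3 without the filter on dim probes, 3 with the replicate block, and 2 to 5 with single samples left out. Of the other list genes after inhalation, 9 were higher with median centring and 18 lower within slide 3, which holds only 1 untreated sample. The causes were not tested. The replicate block changed no other count by over 1.5 times. Requiring a probe above background in all samples left Mmp9, Mmp12 and Mmp13 untested, since each is dim in some group; their folds are limited by signal over background. A random block for the shared array could not be fitted with 1 such pair. The exact test of the difference between the Mmp12 probes is not reported, since both were dim in the controls.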
